A study of Homo sapiens with 33 samples.

Results

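Short cassette exons are exons that can be kept in or left out of an mRNA whole, here with a length of at most 50 nt. They were chosen by length alone from the authors' 4 deposited lists of cassette exon events, 1 for each comparison of hnRNPA1 D262V with wild type (WT). Of 5068 listed events, 584 had such an exon. These were 465 different exons of 4363, in 432 named genes. The lists held 141 short exons of 1425 in undifferentiated SH-SY5Y cells, 135 of 1007 in differentiated homozygous cells, 230 of 1549 in differentiated heterozygous cells and 78 of 1087 in Flp-In cells.

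The splicing factor hnRNPA1 binds pre-mRNA, and the D262V substitution lies in its C-terminal low complexity domain and is linked to amyotrophic lateral sclerosis. SH-SY5Y is a human neuroblastoma line, studied with WT or homozygous D262V hnRNPA1 in the undifferentiated state, and with WT, homozygous or heterozygous D262V after differentiation to day 18 with 10 µM retinoic acid and 50 ng/mL BDNF. Flp-In T-REx 293 cells come from human embryonic kidney and carried a WT or D262V transgene, switched on by 1 µg/mL tetracycline for 72 hr, beside their own hnRNPA1 gene. Each of the 7 groups had 3 RNA libraries. The labels do not say whether libraries came from separate cultures or whether an edited line was 1 clone, so the spread behind each p-value is that between libraries and could be technical alone.

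The shortest cassette exons are known as microexons. In neurons a program that depends on the splicing proteins SRRM4 and SRRM3 switches many of them on, and most keep the reading frame and add a few residues to proteins of the cytoskeleton, synapse and vesicle traffic. Their size leaves little room for splicing enhancers inside the exon, so recognition leans on the flanking introns.

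Inclusion was taken per library as the mean of the authors' percent usage of the 2 junctions that join the exon to its neighbours. An exon was called when the edgeR adjusted p was under 0.05 over all cassette events of its list, mean inclusion differed by at least 10 percentage points, every library had at least 20 reads and the libraries of the 2 groups did not overlap. Every event in the lists already had at least 1 junction with an authors' p of at most 0.05 in the same comparison. The lists are therefore a selection for change, and the shares below describe listed events, not all exons expressed.

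Of the 465 short exons, 292 had a length that is a multiple of 3. The share was larger among short than among longer listed exons in every list: 58.2% against 41.2% in undifferentiated cells, 70.4% against 46.2% in differentiated homozygous cells, 71.3% against 47.2% in heterozygous cells and 57.7% against 48% in Flp-In cells. Such an exon adds whole codons where it lies in coding sequence; its place in the coding frame was not analysed here. Most exons were in 1 list (361), 89 were in 2, 15 in 3 and none in all 4. In 23 genes more than 1 short exon was listed, with 3 each in PTK2 and PTPRF, and these exons are not independent of each other. Gene names matched a RefSeq gene of GRCh38.p14 for 415 of the 432 genes, 408 of them protein coding, and 438 exons lay inside that gene's span.

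A library's junction reads over the listed events ranged from 0.487 to 0.898 M (undifferentiated list), from 1.21 to 1.79 M (homozygous), from 1.71 to 2.97 M (heterozygous) and from 0.394 to 0.561 M (Flp-In). The median short exon had 111 to 215, 389 to 601, 318 to 501 and 95 to 115 reads per library in these lists. The counts do not show the codon changed in hnRNPA1, so the genotype labels were not checked against it. HNRNPA1 itself did not pass the gene-level test in any comparison (log2 fold change -0.28 in undifferentiated, 0.31 in differentiated homozygous, 0.33 in heterozygous and 0.08 in Flp-In cells, edgeR adjusted p from 0.237 to 0.832). Neuroblast markers summed to 362 to 1470 CPM (counts per 1 M reads in genes) in the SH-SY5Y libraries, with CHGA at 0 throughout and TH at 0 in all but some differentiated WT libraries, and to 4.01 to 13 CPM in Flp-In cells, where 6 of 10 were at 0. Of the 4 kidney-line markers, PAX2 was at 0 in Flp-In WT libraries and LHX1 at 0 in Flp-In D262V libraries. These 4 markers summed to 2.67 to 7.19 CPM in Flp-In and 0 to 6.6 CPM in SH-SY5Y libraries. The ranges overlap, so these markers did not set the 2 lines apart. In each library 92.55% to 95.86% of reads were in no counted gene. The gene counts, here and below, therefore undercount, and a marker at 0 was not shown to be silent. Whether reads were counted on the strand of each gene is not stated. Whether the counts that remain follow the level of a gene was not tested, so fold changes and marker sums carry that limit too.

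In differentiated heterozygous cells, most of the short exons that were called had lower inclusion. Of the 230 listed, 100 were called, 90 lower and 10 higher than in WT, which is 43.5%. Over the whole list 17.4% of events were called, 8.01% higher and 9.36% lower. Among exons longer than 50 nt 12.8% were called, and the direction was the other way, with 114 higher and 55 lower. The median difference was -9.44 percentage points for short exons and 2.01 for longer ones. Across the 224 short exons with at least 20 reads in every library, median inclusion was 67.9%, 65.7% and 67.9% in the WT libraries and 54.0%, 53% and 54.0% in the heterozygous ones. The same 3 heterozygous libraries lay above WT for longer exons, at 84.8% to 85.6% against 80.4% to 80.8%. In bulk samples, fewer cells of a type and less RNA per cell cannot be told apart.

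The share of short exons called differed by length and by reading frame. Of exons of 3 to 15 nt, 27 of 42 were called (64.3%), 26 of them lower, with a median difference of -13.6 points. The 1 that rose was a 12-nt exon of PTPRF. Exons of 16 to 27 nt were called in 44 of 76 cases (57.9%), 41 lower, with a median of -13.5 points, and the 3 that rose included ERMAP and MTMR3. From 28 to 50 nt the count was 28 of 111 (25.2%), 22 lower and 6 higher, with a median of -2.56 points. Beyond 50 nt the share stayed between 10.7% and 17.4% in every length class. Exons of 48 to 50 nt, just inside the limit, were called in 4 of 14 cases with a median of -4.27 points, and those of 51 to 53 nt in 4 of 21 with a median of 2.01. Multiples of 3 were called in 84 of 164 cases (51.2%) and other lengths in 16 of 66 (24.2%). The frame groups also differed in length: among exons of 16 to 27 nt the shares were 38 of 63 and 6 of 13, and among those of 28 to 50 nt 21 of 64 and 7 of 47.

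**Figure D1:**
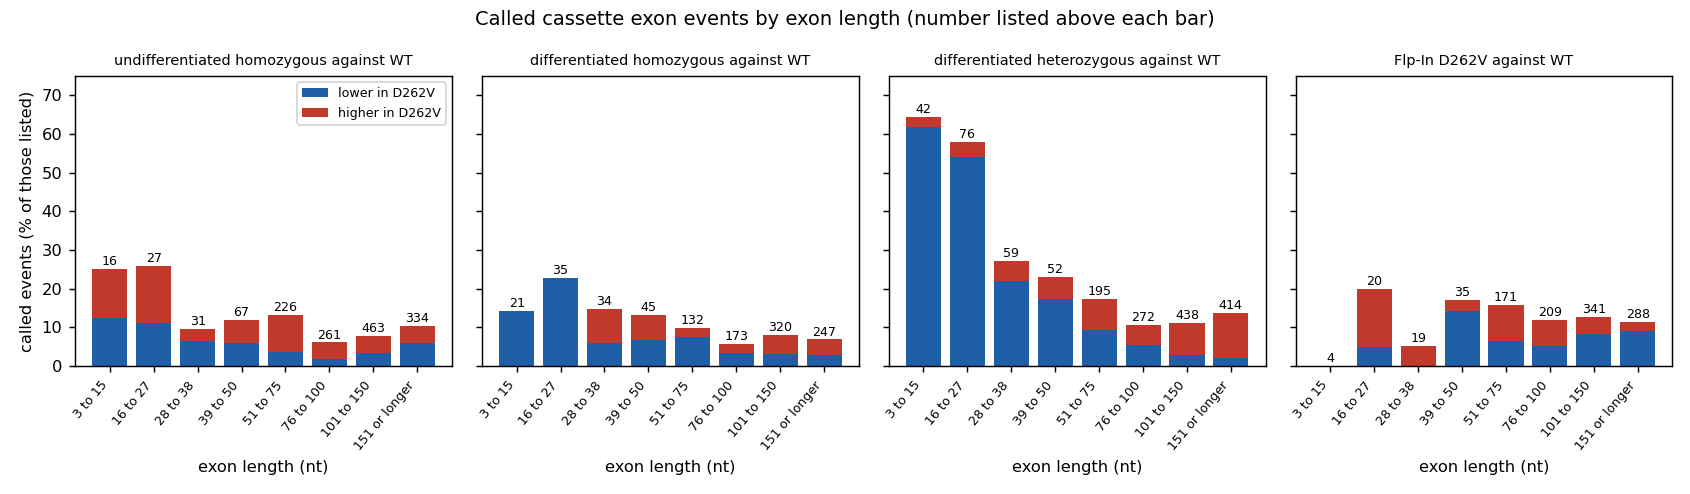
Share of listed cassette exon events that were called (y axis, percent) by exon length in nt (x axis), for the 4 comparisons with WT; blue is lower and red higher in D262V cells, and the number listed stands above each bar. In heterozygous cells the bars fall from 64.3% at 3 to 15 nt to between 10.7% and 17.4% beyond 50 nt, and the 4 shortest classes are mostly blue; the 2-nt exon is not shown.

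**Figure D2:**
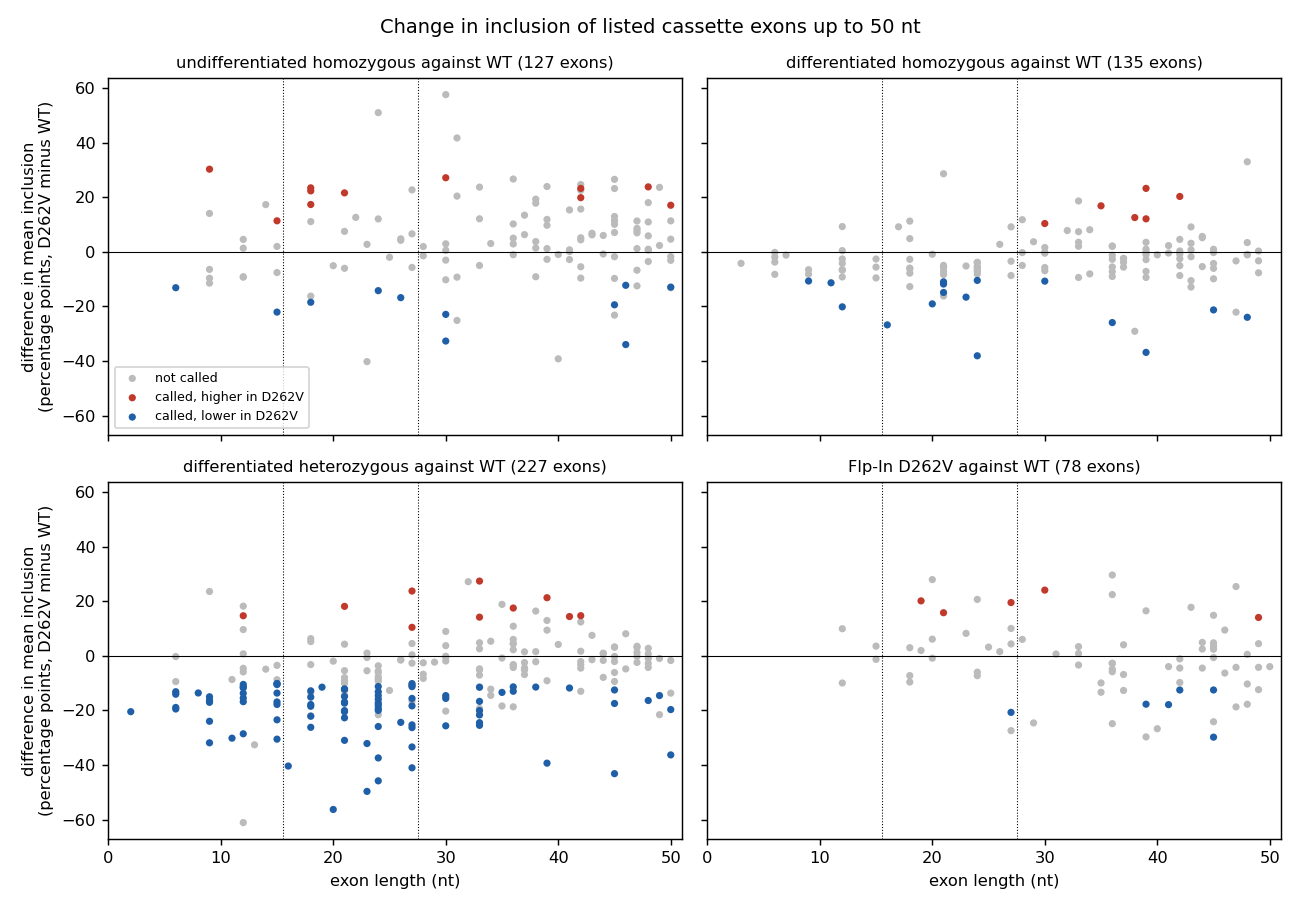
Difference in mean inclusion (D262V minus WT, percentage points) against exon length in nt for each short exon with a value in all 6 libraries, in 4 panels; coloured points were called, and dotted lines mark the limits of the length classes. In the heterozygous panel the points below 28 nt lie mostly under 0, with medians of -13.6 and -13.5 points in the 2 classes, and the other panels hold 22, 22 and 11 called exons.

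The exons that fell were mostly well included in WT cells. Their median inclusion was 85.6% in WT and 64.6% in heterozygous cells, and 40 of the 90 were at or above 90% in WT. Of the 90, 75 had a length that is a multiple of 3, and the median length was 22 nt. The 10 that rose started from a median of 56.6%, none of them at 80% or more, and had a median length of 33 nt. Median WT inclusion was 68.6% over all 230 short exons and 39.7% over the 130 not called. A call needs a change of at least 10 points. An exon above 90% in WT therefore cannot be called higher, nor one under 10% lower, so the rule partly sets these starting levels. For 97 of the 100 called exons, each of the 2 inclusion junctions taken alone also kept the groups apart. Both junctions are set against the same skipping reads, and a read can cross both in a short exon. The exons were also called on the mean of the 2, so this count is not separate support for the calls.

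The largest fall among the called exons was in BAK1, which encodes a pore-forming protein of the outer mitochondrial membrane in cell death and has a known neuronal microexon. Inclusion of its 20-nt exon (chr6:33574505-33574524, minus strand, hg38) was 85.6%, 83.3% and 88.4% in the WT libraries and 37.0%, 24.0% and 27.4% in the heterozygous ones. The means were 85.8 ± 2.57 and 29.5 ± 6.74 (SD, n = 3), a difference of -56.3 points (edgeR adjusted p = 9.77e-07). The groups lay far apart, and 20 nt is not a multiple of 3, so the forms with and without the exon differ in frame after it where it is coding.

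KIF1C, a kinesin motor for transport along microtubules, had a 23-nt exon (chr17:5019848-5019870, plus strand) included at 82.2%, 83.3% and 81.3% in WT and 32.0%, 36.0% and 29.9% in heterozygous libraries. The difference was -49.7 points (edgeR adjusted p = 3.56e-10), with an SD of 0.956 in WT and 3.08 in heterozygous cells. The 24-nt exon of LAYN, a membrane receptor for hyaluronan, fell from 64.0%, 64.7% and 62.1% to 12.6%, 21.0% and 19.8% (-45.8 points, edgeR adjusted p = 1.09e-06). No WT library of these 3 exons came near a heterozygous one.

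The next largest falls were in 5 genes. The 45-nt exon of ASPH, a hydroxylase of the endoplasmic reticulum, went from 83.7%, 76.3% and 86.3% to 43.4%, 41.5% and 31.8% (-43.2 points, edgeR adjusted p = 2.63e-09). A 16-nt exon of COL11A1, a fibrillar collagen chain (chr1:102979596-102979611), went from 57.1%, 33.3% and 45.5% to 3.9%, 1.9% and 9.0%, and some libraries had only 22 reads. CACNA1D, a voltage-gated L-type calcium channel subunit, had a 27-nt exon at 100%, 68.8% and 96.6% in WT and 55.0%, 56.1% and 31.2% in heterozygous cells (edgeR adjusted p = 0.0128). Here the libraries within a group spread widely, with SDs of 17.1 and 14.1 points. The 39-nt exon of TNS1, a focal adhesion protein, fell by 39.3 points from 77.5 ± 16.4% (SD, n = 3), and the 24-nt exon of the kinase gene TNIK fell by 37.4 points from 100% in every WT library to 61.2%, 38.2% and 88.3%.

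REST and ROBO1 complete the 10 largest called falls. REST encodes a repressor of neuronal genes; inclusion of a short exon in its transcript is known to give a truncated form and to depend on SRRM4. Its 50-nt exon (chr4:56927614-56927663, plus strand) was included at 82.7%, 82.0% and 91.4% in WT and 46.3%, 49.2% and 51.6% in heterozygous libraries (-36.3 points, edgeR adjusted p = 0.000273). ROBO1 is an axon guidance receptor, and its 27-nt exon (chr3:78647628-78647654, minus strand) went from 77.3%, 85.1% and 72.5% to 44.6%, 43.6% and 46.5% (-33.4 points, edgeR adjusted p = 0.000747). The heterozygous libraries lay within a few points of each other for both exons.

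The 10 exons that rose had a median difference of 16.1 points, against -17.4 for the 90 that fell. Their median length was 33 nt, against 22. The largest rise was in a 33-nt exon of the zinc finger gene ZNF615. It was at 35.4%, 60.6% and 30.5% in WT and 72.6%, 62.8% and 73.2% in heterozygous cells, where the groups nearly met. Smaller rises of 10.4 to 21.3 points were in SLC10A7, ERMAP, LIMCH1, EMSY, PTPRF, ZFAND3, MTMR3 and the netrin receptor gene UNC5B. The rise in LIMCH1 was from 49.3%, 55.3% and 51.6% to 71.1%, 71.2% and 66.3%.

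**Figure D3:**
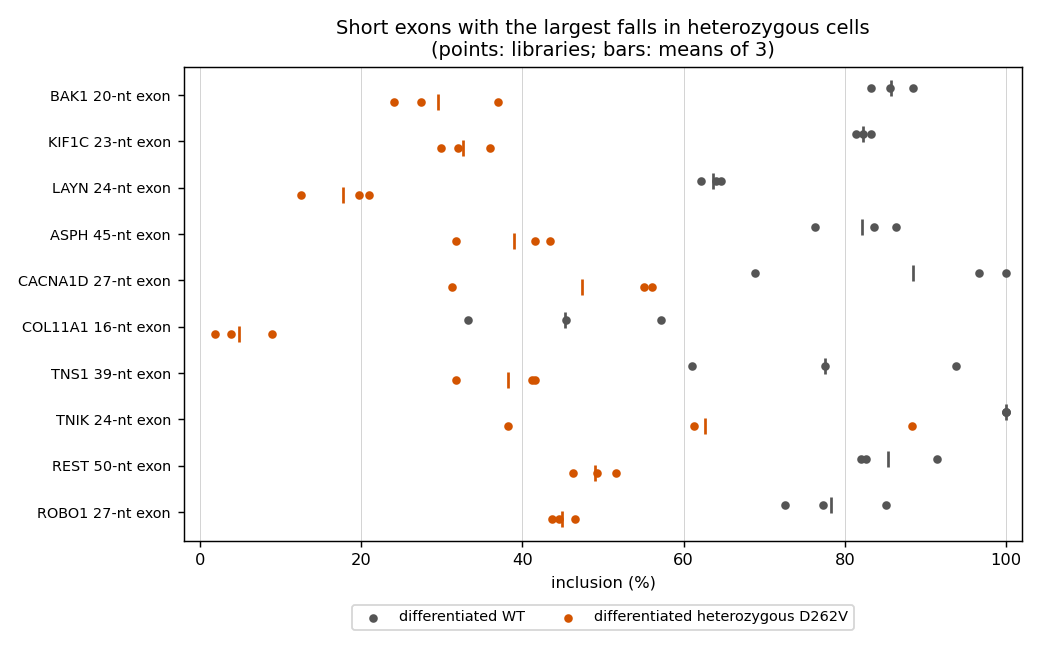
Inclusion (x axis, percent) in each differentiated WT (grey) and heterozygous D262V (orange) library for the 10 called short exons with the largest falls; points are libraries and bars means of 3. BAK1, KIF1C and LAYN show the widest gaps, and CACNA1D, TNS1 and TNIK the widest spread within a group.

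Genes known from the literature for neuronal microexons or other short exons made up a list of 104, of which 28 had 33 short exons in the heterozygous list. Of the 33, 19 fell, 1 rose and the median difference was -13 points, against -9.44 over all short exons and 1.39 over all listed events. Over all short exons 43.5% were called, and over all listed events 17.4%. In the classes of 3 to 15 and 16 to 27 nt, 64.3% and 57.9% were called, with medians of -13.6 and -13.5 points. Length was not matched between the gene list and all short exons, so no excess beyond length can be read from these values. The exons named next are members of that list. The 18-nt exon of MACF1, a linker of actin and microtubules, was at 96.8% in WT and 81.7 ± 1.16% (SD, n = 3) in heterozygous cells (edgeR adjusted p = 3.56e-10), and the 18-nt exon of DST, a related linker, fell from 85.0% to 67.1%. DCTN1, a subunit of the dynein cofactor dynactin, lost its 15-nt exon from 91.5% to 74.6%, and CLASP1, which binds growing microtubule ends, its 27-nt exon, by 18.3 points from 98.3%.

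SYNJ1, a lipid phosphatase of synaptic vesicle recycling, had 2 listed exons of 24 nt: the one at chr21:32676331-32676354 fell from 98.8% to 82.9%, and the other was at 68.3% and 51.4% without passing the call. The 6-nt exon of PACSIN2, an endocytic membrane-bending protein, fell by 13.2 points, the 45-nt exon of the exocyst subunit EXOC1 by 12.5 and the 12-nt exon of ERC1 by 10.5. Falls were also called in the kinase gene MAP4K4 (9 nt, from 96.7% to 80.5%), in GIT1 (27 nt, from 97.1% to 86.9%) and in PTK2, the focal adhesion kinase, whose 21-nt and 9-nt exons fell from 97.3% to 79.9% and from 45.2% to 30.2%. The transcription factor gene MEF2D lost its 21-nt exon from 94.3% to 73.8%.

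PTPRF, a receptor-type tyrosine phosphatase, had exons that moved in opposite directions. Its 12-nt exon at chr1:43583081-43583092 rose from 43.0%, 44.8% and 43.4% to 56.8%, 58.3% and 60.02% (edgeR adjusted p = 0.0123). The other 12-nt exon, at chr1:43608323-43608334, fell by 11.7 points from a mean of 36.8% (edgeR adjusted p = 0.022). The third exon, of 33 nt, was at 12% and 4.9% and was not called. Some exons missed the call on a single criterion. The 6-nt exon of APBB1 was at 98.1% in WT and 88.6% in heterozygous cells, 9.44 points apart, and the 12-nt exon of LRRC16A, at 95.7% and 34.6%, had a library with 18 reads.

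The 1 listed exon under 3 nt was in LRP1, an endocytic receptor, where a 2-nt exon (chr12:57202761-57202762) fell from 29.6%, 36.8% and 39.1% to 14.3%, 16.8% and 13%. Every library had at least 419 reads over this event, and the groups did not overlap. The exon was read from junction coordinates alone, and whether it is a true exon was not checked against a genome sequence or annotation. In the same comparison, summed mesenchymal markers were 42.2 to 52.2 CPM in heterozygous and 16.8 to 25 CPM in WT libraries, with POSTN and PRRX1 at 0 in both. Summed neuroblast markers were 863 to 1120 and 1040 to 1070 CPM. Their part in the fall of short exons was not tested.

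In differentiated homozygous cells the same WT libraries served as the reference, and fewer short exons were called. Of 135 listed, 22 were called (16.3%), 16 lower and 6 higher; over the whole list 8.74% were called, 3.87% higher and 4.87% lower. The median difference was -3.78 points for short exons and 0.43 for longer ones. All called exons under 28 nt were lower, 3 of 21 at 3 to 15 nt and 8 of 35 at 16 to 27 nt. From 28 to 50 nt, 6 of 79 were higher and 5 lower. Multiples of 3 were called in 16 of 95 cases and other lengths in 6 of 40.

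LAYN had the largest fall among the called exons here, with its 24-nt exon at 64.0%, 64.7% and 62.1% in WT and 21.4%, 32.6% and 22.4% in homozygous libraries (edgeR adjusted p = 1.35e-05). The 39-nt exon of the interleukin receptor gene IL17RC went from 91.5%, 72.3% and 73.0% to 33.8%, 42.0% and 50.5% (-36.9 points). Falls of 14.9 to 26.8 points followed in COL11A1, PRELID2, ASPH, ACAP2, BAK1, KIF1C, DYNC2H1 and a 48-nt exon with no gene name at chr17:39556139-39556186. ASPH, at 63.4%, 63.2% and 55.7% in homozygous libraries, had the smallest p-value of the called exons (edgeR adjusted p = 1.35e-06). SHANK1, a scaffold of the postsynaptic density, lost 10.5 points of its 24-nt exon.

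The 6 rises included SLC10A7, TMEM52, SLC9A8, ZNF790-AS1 and EXOC7. EXOC7, a subunit of the exocyst that tethers secretory vesicles, had its 39-nt exon at 42.0%, 42.1% and 45.5% in WT and 58.2%, 52.7% and 55.0% in homozygous libraries (edgeR adjusted p = 0.00833). Of the 104 genes known for short exons, 16 had an exon in this list; EXOC7 rose, no other passed the call, and the median difference was -4.68 points, beside 16.3% called over all short exons and 8.74% over all listed events. Summed mesenchymal markers were 24.8 to 28 CPM in homozygous and 16.8 to 25 CPM in WT libraries, with POSTN and PRRX1 at 0 in both. Summed neuroblast markers did not overlap, at 1160 to 1470 and 1040 to 1070 CPM, with CHGA at 0 in both. The part of these markers in the calls was not tested.

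Homozygous and heterozygous cells were also compared directly for the 73 short exons in both differentiated lists, without the WT libraries in the contrast. Of these, 17 were called (23.3%), and all 17 had higher inclusion in homozygous cells. Over all 338 shared events 9.47% were called. The median difference was 6.41 points for short and -0.117 for longer exons. By length, 3 of 17 exons of 3 to 15 nt, 11 of 28 of 16 to 27 nt and 3 of 28 of 28 to 50 nt were called. The count was 11 without heterozygous library 1 and 9 without homozygous library 1, all in the same direction. Markers also lay apart between these genotypes: summed mesenchymal markers were 24.8 to 28 CPM in homozygous and 42.2 to 52.2 CPM in heterozygous libraries, and summed neuroblast markers 1160 to 1470 and 863 to 1120 CPM, and their part in these differences was not tested.

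The largest differences between the genotypes were in BAK1 and TENM4. BAK1 inclusion was 69.2%, 56.1% and 74.7% in homozygous and 37.0%, 24.0% and 27.4% in heterozygous libraries, 37.1 points apart (edgeR adjusted p = 0.00217). TENM4, a teneurin cell adhesion protein, had its 27-nt exon (chr11:78778601-78778627) at 85.6%, 77.9% and 79.1% in homozygous cells, 54.3%, 50.8% and 34.1% in heterozygous cells and 70.1%, 71.8% and 73.3% in WT. KIF1C inclusion was 63.8%, 70.5% and 62.7% against 32.0%, 36.0% and 29.9% (33.0 points, edgeR adjusted p = 0.000172). The homozygous libraries of BAK1 and KIF1C lay between the WT and the heterozygous libraries, and those of TENM4 lay above both. Against WT, the TENM4 exon was not called in homozygous cells (9.13 points, edgeR adjusted p = 0.1).

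EXOC7 differed by 21.9 points, with homozygous libraries above WT and heterozygous ones at 34.0%, 31.5% and 34.6%. ASPH differed by 21.9 points and the 9-nt exon of DTNA, a dystrobrevin of the dystrophin complex, by 21.2. The other 11 differed by 10.6 to 18.8 points and included MACF1, DST, SYNJ1, the microtubule polymerase gene CKAP5 and NCKAP1, a subunit of the WAVE complex that drives actin branching. MACF1 had the smallest p-value (94.5%, 94.5% and 93.3% against 82.6%, 80.4% and 82.2%, edgeR adjusted p = 2.84e-06).

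**Figure D4:**
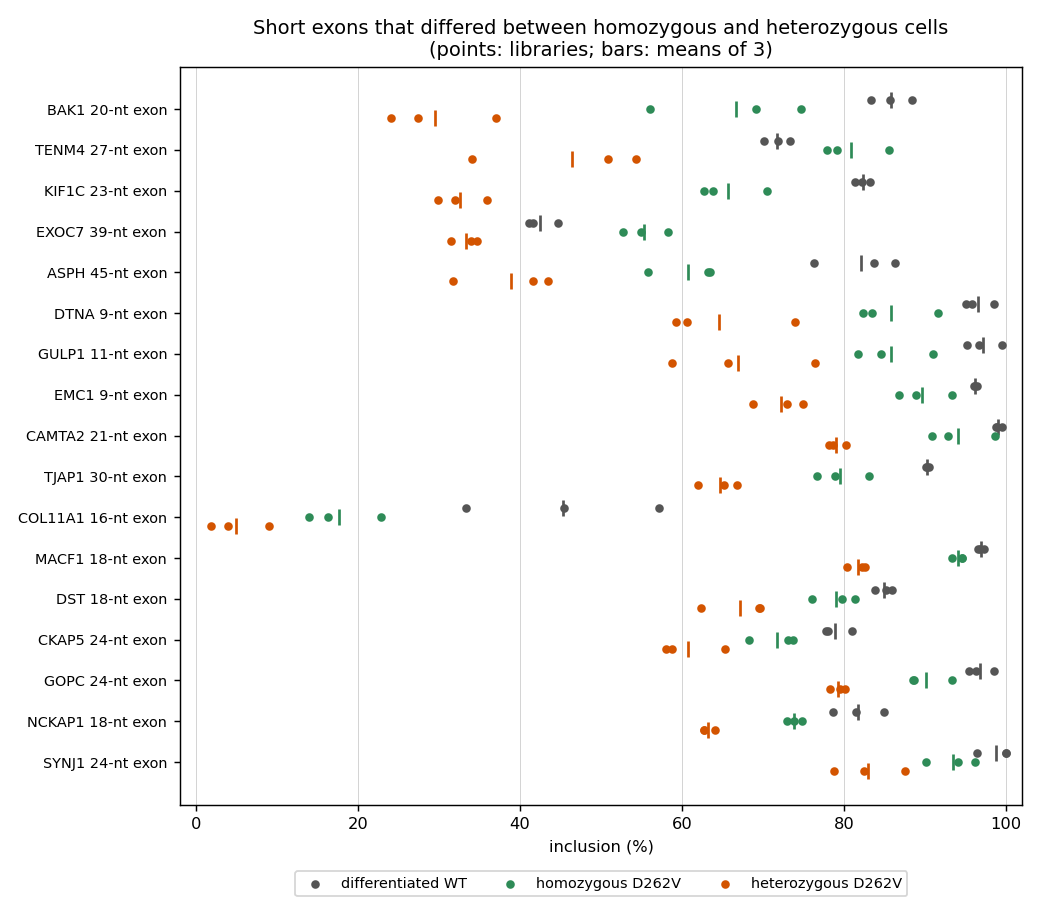
Inclusion (x axis, percent) per library in differentiated WT (grey), homozygous (green) and heterozygous (orange) cells for the 17 short exons called between the last 2 groups; points are libraries and bars means of 3. Homozygous libraries lie above the heterozygous ones in each row, and for TENM4 and EXOC7 also above WT. EXOC7 passed the call against WT and TENM4 did not.

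In undifferentiated cells, 22 of 141 short exons were called in homozygous against WT cells (15.6%), 11 higher and 11 lower. Over the whole list 9.75% were called, 5.54% higher and 4.21% lower. The median difference was 3.75 points for short and 1.1 for longer exons. By length, 4 of 16 exons of 3 to 15 nt, 7 of 27 of 16 to 27 nt and 11 of 98 of 28 to 50 nt were called, in both directions in each class. Multiples of 3 were called in 17 of 82 cases and other lengths in 5 of 59. These calls rest on the full set of libraries: the count was 4 without homozygous library 1, 0 without library 2 and 1 without library 3, and 12 and 10 without WT library 1 or 2. Without homozygous library 2, 21 short exons met the other criteria with an unadjusted p under 0.05 in edgeR.

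Of the 11 rises, those in AP1B1 and NRCAM are given in full. AP1B1, a subunit of a clathrin adaptor, had its 9-nt exon (chr22:29329711-29329719, minus strand) at 41.4%, 32.0% and 24.2% in WT and 63.5%, 67.3% and 57.7% in homozygous libraries (30.3 points, edgeR adjusted p = 0.0238). NRCAM, a neuronal cell adhesion molecule, had its 30-nt exon (chr7:108191253-108191282, minus strand) at 43.6%, 62.9% and 47.1% and at 79.8%, 78.0% and 77.2%, the smallest p-value of the called exons here (edgeR adjusted p = 0.000204). ABI2, a partner of the WAVE complex, gained 23.4 points of an 18-nt exon, and PTK2 17.3 points of an 18-nt exon. The other rises were in GOLGA4, ELN, ARVCF, EPRS, CAMK2D, SYCP2L and a 15-nt exon of ARHGEF11. EPRS libraries nearly met, at a highest WT value of 41.2% and a lowest homozygous value of 41.4%.

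The largest fall among the called exons was in the Wnt receptor gene FZD3, whose 46-nt exon was at 38.3%, 47.8% and 58.8% in WT and 9.6%, 10.4% and 22.9% in homozygous cells (edgeR adjusted p = 0.0287). ARHGEF11, a guanine nucleotide exchange factor, had its 30-nt exon at 87.3%, 100% and 96.0% against 87.1%, 48.8% and 49.4%, so 1 homozygous library was next to the WT range. CELSR3, an atypical cadherin of axon guidance, lost its 15-nt exon from 32.7%, 35.8% and 26.5% to 9.4%, 9.0% and 10.3%, with close libraries in each group. Smaller falls of 12.3 to 22.9 points were in PPP3CB, ASPH, DOCK11, CCDC66, OCRL, HOOK2, KDM4B and TMX3, whose WT means were 86.9% to 100%. Of the genes known for short exons, 11 had an exon in this list; 3 rose (AP1B1, NRCAM and PTK2) and no other passed the call, beside 15.6% called over all short exons and 9.75% over all listed events. Summed mesenchymal markers were 53.7 to 78.1 CPM in homozygous and 16.9 to 20.8 CPM in WT libraries, with LUM, POSTN and PRRX1 at 0 in both. Summed neuroblast markers were 381 to 391 and 362 to 372 CPM, with TH and CHGA at 0. The part of these markers in the calls was not tested.

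A test of whether the D262V effect differed between the undifferentiated and differentiated homozygous cells was possible for 17 short exons in both lists. The interaction was called for 3, OCRL, EXOC7 and SBF1; over all 80 shared events 17.5% were called. Differentiation itself was read from the WT libraries of the 2 states, with 3 of the 17 called and 10.0% of the 80. All 3 were more included after differentiation: NRCAM, from 43.6%, 62.9% and 47.1% to 96.8%, 96.1% and 96.3%, EXOC7, from 0% in all 3 libraries to 42.0%, 42.1% and 45.5%, and SBF1, a phosphatase-like regulator of lipid traffic, from 7.1%, 10.9% and 0% to 74.0%, 68.8% and 71.1%. State and library set cannot be told apart here, since the 2 states were counted in separate lists.

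ASPH fell in all 3 SH-SY5Y comparisons with WT, by 19.4 points in undifferentiated homozygous, 21.3 in differentiated homozygous and 43.2 in heterozygous cells; the last 2 share their WT libraries. OCRL, a phosphoinositide phosphatase, and HOOK2, a linker of cargo to dynein, fell in undifferentiated homozygous cells by 14.2 and 13.2 points and in heterozygous cells by 13.2 and 14.1. KIF1C was at 77.2 ± 19.9% and 36.9 ± 13.2% (SD, n = 3) in undifferentiated WT and homozygous cells, which did not pass the call (edgeR adjusted p = 0.0641, 19 reads in the lowest library).

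In Flp-In cells 11 of 78 short exons were called (14.1%), 5 higher and 6 lower in cells with the D262V transgene. The whole list had 12.8% called, 5.24% higher and 7.54% lower, and the median difference was -1.22 points for short and -2.5 for longer exons. The 4 exons of 3 to 15 nt differed by -9.97 to 9.92 points and were not called. The lowest of these, the 12-nt exon of SUPT5H, missed the call on the size of the difference alone. It was at 92.7%, 95.4% and 94.0% in WT and 83.2%, 85.9% and 83.0% in D262V libraries (edgeR adjusted p = 3.6e-06). The highest, the 12-nt exon of TEAD1, had an edgeR adjusted p of 0.15. From 16 to 27 nt 4 of 20 were called, and from 28 to 50 nt 7 of 54. Multiples of 3 gave 8 of 45 and other lengths 3 of 33.

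NCAM1, a neural cell adhesion molecule, had its 30-nt exon (chr11:113221295-113221324, plus strand) at 8.6%, 20.4% and 13% in WT and 34.6%, 44.0% and 35.6% in D262V libraries (24.1 points, edgeR adjusted p = 0.0102). The 19-nt exon of ZRANB3, a DNA remodelling enzyme of stalled replication forks, went from 73.0%, 81.5% and 85.1% to 100% in all 3 libraries, the lowest having 27 reads. MAST2 and ARHGAP17 rose by 15.8 and 14 points. The largest fall among the called exons was in MYO18A, an unconventional myosin, whose 45-nt exon was at 62.3%, 50.9% and 46.2% in WT and 38.6%, 17.2% and 14.1% in D262V cells (edgeR adjusted p = 0.00924). COL25A1, SETD5, UTRN, SPAG9 and TBC1D23 fell by 12.5 to 20.7 points. Of the genes known for short exons, 7 had an exon here, of which NCAM1 rose and MYO18A and SPAG9 fell, beside 14.1% called over all short exons and 12.8% over all listed events.

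ROBO1 was the 1 gene with the same short exon called in both cell lines. Its 27-nt exon was at 63.6%, 65.1% and 77.5% in Flp-In WT and 85.3%, 84.7% and 94.7% in Flp-In D262V libraries, a rise of 19.5 points (edgeR adjusted p = 0.00234), against the fall of 33.4 points in differentiated heterozygous SH-SY5Y cells. The difference between the lines was not tested. The 2 lists shared 11 short exons, of which 6 were called in heterozygous cells and 2 in Flp-In cells.

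**Figure D5:**
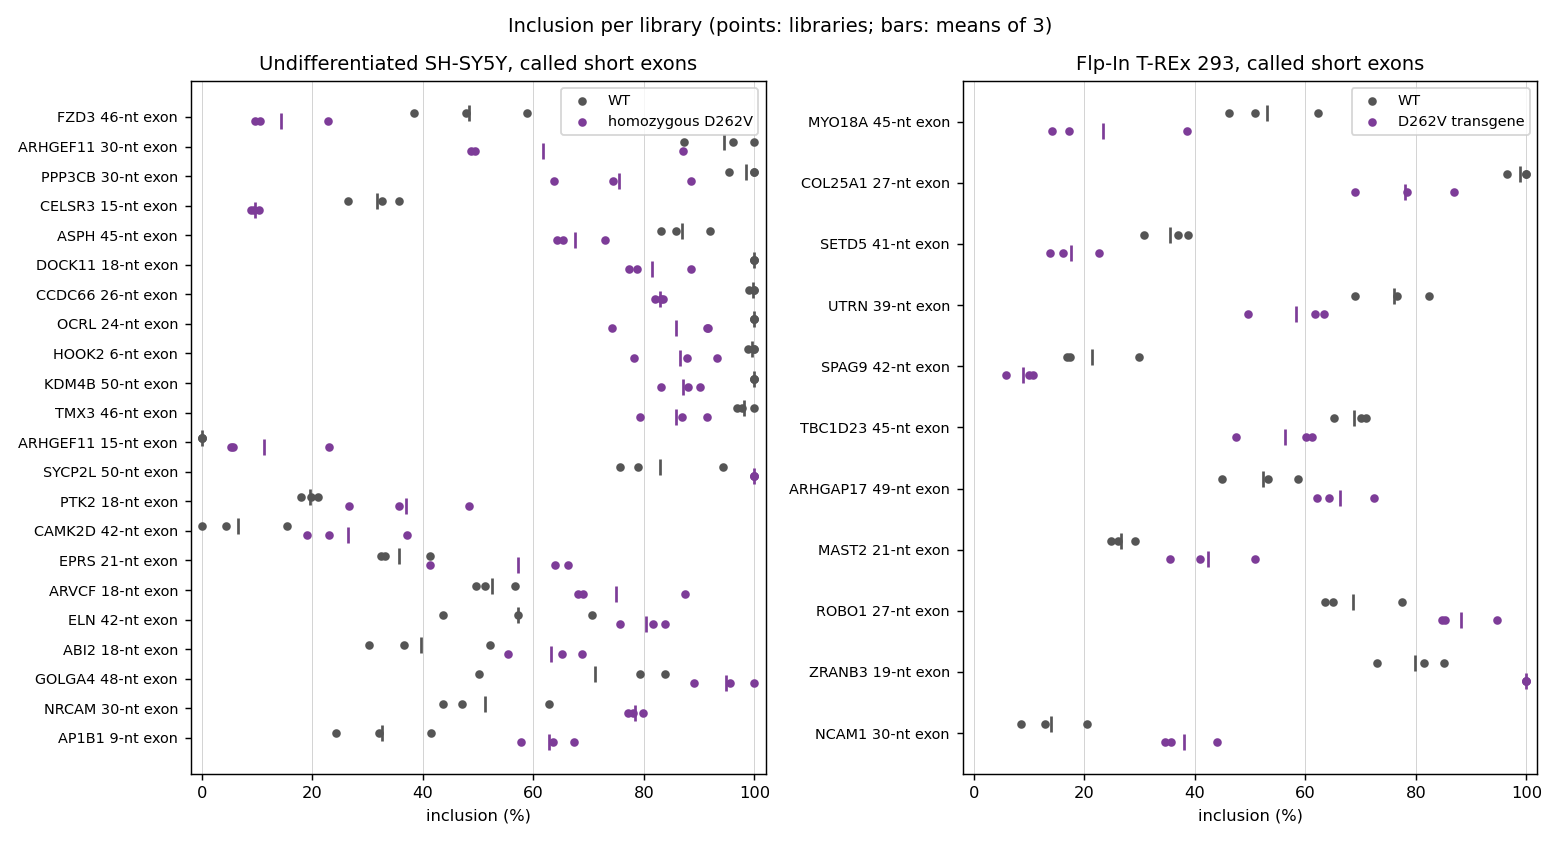
Inclusion (x axis, percent) per library for the short exons called in undifferentiated SH-SY5Y cells (left, 22 exons) and in Flp-In cells (right, 11 exons); grey is WT and purple D262V, points are libraries and bars means of 3. Exons lie on both sides, 11 lower and 11 higher on the left and 6 lower and 5 higher on the right.

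Splicing regulators known to act on short exons were read from the gene counts, with 18 genes on the list. In heterozygous cells 17 were tested and 2 fell; 16.4% of all genes tested there passed the same threshold. SRRM4, the neuronal activator of microexons, was at 8.51, 6.56 and 7.23 CPM in WT and 3.52, 3.61 and 2.48 CPM in heterozygous libraries (log2 fold change -1.21, SE 0.31, edgeR adjusted p = 0.00645). The neuronal RNA-binding protein gene ELAVL4 was at 56.1, 58.6 and 51.1 against 31.3, 34.1 and 40.6 CPM (log2 fold change -0.65, SE 0.16, edgeR adjusted p = 0.0039). SRRM3, the related activator, was at 21.4, 29.0 and 25 against 18.6, 19.8 and 15.0 CPM and did not pass (log2 fold change -0.50, edgeR adjusted p = 0.0648).

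No regulator passed in the other comparisons, in the main edgeR fit or in DESeq2. In Flp-In cells 1 passed in edgeR when low counts were not filtered. PTBP1 alone had an unadjusted p under 0.05 in the main edgeR fit in undifferentiated and in Flp-In cells (log2 fold change 0.56 and 1.13). No regulator did in differentiated homozygous cells. In differentiated homozygous cells 17 were tested, and 6.08% of all genes passed; SRRM4 was at 7.52, 5.05 and 6.44 CPM (log2 fold change -0.22, SE 0.29, edgeR adjusted p = 0.775). In undifferentiated cells 10 were tested against 3.67% of all genes, and in Flp-In cells 9 against 5.84%. SRRM4 was not among the genes tested in those 2 tables. Most reads were in no counted gene, and the gene count was below the reads over a single junction for 81.9% to 86.8% of the short exons' genes. The gene counts therefore undercount, and it was not tested whether their fold changes follow the level of these genes. Junction reads, chosen as a check after the values were seen, gave SRRM4, at an alternative 5' splice site, 144.8 ± 25.1 reads per 1 M listed cassette junction reads in WT and 83.3 ± 16.3 in heterozygous cells (SD, n = 3), a fold of 0.575, and SRRM3 929.6 ± 50.8 and 587.2 ± 38.2, a fold of 0.632. In the homozygous list the SRRM4 reads were over other junctions, those of a cassette exon, at 136.6 ± 24.1 in WT and 147.8 ± 38.5 in homozygous cells, so the 2 pairs of values are not the same measurement. The SRRM3 reads were also those of a cassette exon. Cassette values sum the 2 inclusion junctions and the skipping junction, so a change in inclusion alone also moves them, and they do not measure gene level alone. Whether these levels bear on the exons was not tested.

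Infrared crosslinking and immunoprecipitation (irCLIP) maps where a protein touches RNA, and the authors' deposited lists give pooled clusters for WT and D262V hnRNPA1. For SH-SY5Y the labels do not say whether the D262V cells were homozygous or heterozygous, or whether the cells of either list were differentiated, and the same lists are set beside all 3 SH-SY5Y comparisons. Of 409 short exons of the SH-SY5Y lists, 97 had a WT cluster on their strand in the exon or within 250 nt of intron on either side, 23.7% (Wilson 95% interval 19.9 to 28.1), and 23.2% had a D262V cluster. The share was 26.5% for longer exons with either list. Inside the exon itself it was 6.6% for short and 11.8% for longer exons with the WT list, which differ in the length that can hold a cluster. In Flp-In cells 23 of 78 short exons (29.5%, interval 20.5 to 40.4) had a WT cluster and 26.9% a D262V cluster, against 33.7% and 33.4% of longer exons.

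With the WT cluster list, the share of exons with a cluster nearby was no larger among called exons than among the others in any of the 4 comparisons. In the heterozygous comparison 19 of the 100 called exons had a WT cluster (19.0%) and 35 of the 130 others (26.9%). In the homozygous comparison the figures were 1 of 22 and 25 of 113, in undifferentiated cells 5 of 22 and 28 of 119, and in Flp-In cells 3 of 11 and 20 of 67. With the D262V list the Flp-In figures were 4 of 11 and 17 of 67. None of the 10 exons with the largest falls in heterozygous cells, from BAK1 to ROBO1, had a cluster in either list. Expression of the genes was not matched between these sets, and no replicate spread can be given for pooled lists.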

How the data were processed

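RNA was sequenced from 21 libraries of poly(A) RNA with a directional NEBNext Ultra kit, per the labels' protocols. Alignment was to hg38, and the tools named are Cufflinks, DESeq2, HTSeq and STAR 2.5.3a, per the submitters' processing notes; whether gene counting used strand is not stated there or in the labels. The authors' deposited splicing tables, in the layout of the JUM program, hold raw junction read counts per library, the percent usage of each junction, and a p-value with its adjusted value per junction. The authors' deposited gene tables hold read counts per gene symbol, and the deposited irCLIP lists, pooled over samples, hold a score per cluster.

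Exon length was read from the junction coordinates; 1 event of the undifferentiated table could not be read. Percent values the authors gave as infinite (380, touching 17 short events) were treated as missing, and such events could not be called. Each event was tested on 2 counts, the rounded mean of its inclusion junctions and its skipping junction, with glmQLFit and diffSpliceDGE of edgeR 4.0.16 in R 4.3.3, TMM scaling and Benjamini-Hochberg adjustment over all cassette events of the table. The interaction was called on the adjusted p, a difference of 10 points and 20 reads. Gene counts were tested with glmQLFTest. The event tests of edgeR and DESeq2 were tried on counts simulated from the differentiated homozygous list, with a fixed spread between libraries. The call rule, the interaction, the gene tests and the cluster shares were not simulated. WT counts in the 2 differentiated tables differed slightly for 141 of 338 shared events (median 0.56%). Named exons are the 10 largest falls and rises called per comparison with WT, the 6 largest in the other tests and called exons of the listed genes; others were named after their values were seen, and some are not reported here. The exons, lists and tests were chosen with earlier results of these data known. Same-numbered libraries did not deviate together (r from -0.19 to 0.24) and were not treated as pairs in the main tests. These values cannot show whether same-numbered libraries shared a culture or a preparation day. No 2 libraries of a group agreed within counting noise. Intervals cover counting error only. Alternatives were another scaling, DESeq2 1.42.0, read and size minimums, inclusion from counts, the replicate block and leaving out each library.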

Additional observations from a re-analysis of the deposited data

Results flagged for a closer look

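The effect of D262V on inclusion differed between undifferentiated and differentiated homozygous cells for 3 short exons, by the interaction test in edgeR. The 24-nt exon of SBF1 had an effect that was -20.19 points apart (differentiated minus undifferentiated): 12.03 points in undifferentiated cells, from 7.1%, 10.9% and 0% in WT to 18.3%, 15.7% and 20.1%, and -8.16 points after differentiation, from 74.0%, 68.8% and 71.1% to 63.0%, 62.5% and 63.8% (edgeR adjusted p of the interaction 0.000913). For the 24-nt exon of OCRL the difference was 10.327 points, with effects of -14.2 and -3.92 points (edgeR adjusted p = 0.0124). For the 39-nt exon of EXOC7 it was 10.907 points, with 1.16 points in undifferentiated cells, where inclusion was at most 1.8% in any library, and 12.1 points in differentiated cells (edgeR adjusted p = 0.00942). The edgeR test compares inclusion with skipping reads on a log scale and not in points. On that scale a small rise from 0%, as in undifferentiated cells, can outweigh a larger rise in points from 43.2%. The p-value for EXOC7 therefore does not show a larger effect of D262V after differentiation. With DESeq2 the interaction stayed past the threshold for OCRL and not for SBF1 or EXOC7. Leaving out 1 library brought the difference under the minimum of 10 points for EXOC7 (9.44 without differentiated homozygous library 1) and for OCRL (4.56 without undifferentiated homozygous library 2, 9.42 without differentiated WT library 2 and 8.84 without differentiated homozygous library 3), while SBF1 kept its call.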

How the results depend on the processing

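The called short exons in heterozygous cells were lower in most cases under every alternative run: 83 to 101 when 1 library was left out (76 to 90 lower), 37 with a minimum of 20 points (34 lower), 154 by adjusted p alone (126 lower) and 60 with the authors' adjusted p under 0.05 in every junction (56 lower). The other counts moved further. In undifferentiated cells they were 12 with DESeq2, 11 at 20 points, 70 by adjusted p alone, 11 for exons of 3 to 27 nt, 4 with the authors' p and 0 to 20 when 1 library was left out. In differentiated homozygous cells they were 14, 9, 96, 11 and 3 under the first 5 of these, 52 at 5 points and 15 to 22 without 1 library. In Flp-In cells they were 5, 4, 34, 4 and 1, with 18 at 5 points, 6 with 50 reads per library and 9 to 14 without 1 library; exons there whose length is not a multiple of 3 gave 6 called with no read minimum in place of 3. The interaction gave 1 with DESeq2, 1 at 20 points, 5 by adjusted p alone and 2 to 4 without 1 library. Between homozygous and heterozygous cells, 28 were called at 5 points, 6 at 20 points, 28 by adjusted p alone and 9 to 18 without 1 library, all higher in homozygous cells. WT differentiation gave 6 by adjusted p alone and 1 for exons of 3 to 27 nt. With the replicate number as a block, the homozygous against heterozygous count fell from 17 to 11; the other counts of short exons were 18, 22, 105, 11, 3 and 3 under the block, within 1.5 times of those without it. Regulators past the threshold in Flp-In cells were 1 with no filter on low counts and 0 to 1 without 1 library. No named exon changed direction. Of the exons named by rule, 26 of 38 in heterozygous, 5 of 16 in differentiated homozygous, 6 of 11 in Flp-In and 0 of 20 in undifferentiated cells, 1 of 3 for the interaction, 5 of 6 between homozygous and heterozygous cells and 3 of 3 for WT differentiation kept their call in every fit without 1 library. The cause of these shifts was not tested. Clusters near short exons covered 11.7%, 12%, 15.4% and 11.5% (SH-SY5Y WT and D262V, Flp-In WT and D262V) with 100 nt of intron, 35.2%, 34.0%, 41.0% and 38.5% with 500 nt, and 12.7%, 13.4%, 19.2% and 16.7% for clusters that score above their list's median. Depth over the median short exon was 95 to 115 reads per library in Flp-In and 111 to 215 in undifferentiated cells, and its effect on the counts of calls was not tested.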
